A study of Mus musculus with 4 samples.

Results

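The cells described here are disc cells of the mouse tail that carried high levels of the stromelysin gene Mmp3, the inducible nitric oxide synthase gene Nos2 and the chemokine genes Cxcl1 and Cxcl2. They were chosen by those measured levels. Each of 7 panels of 4 genes was scored in every cell as the mean z-score of its genes, and a cell was a member when the Mmp3, Nos2, Cxcl1 and Cxcl2 panel scored highest and above 0.5. Of 2417 kept cells, 367 were members: 29 in control round 1, 9 in control round 2, 181 in injured round 1 and 148 in injured round 2. Of the rest, 1497 cells had a different one of the 7 panels highest and over 0.5 and are called the other panel cells, and 553 had no panel over 0.5.

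CXCL1 and CXCL2 are secreted chemokines that attract neutrophils through the receptor CXCR2. MMP3 is a secreted protease that cleaves proteoglycans and activates other metalloproteinases, and NOS2 makes nitric oxide from arginine. In cartilage and disc cells these genes are known to be switched on by interleukin-1 and tumour necrosis factor through the transcription factors NF-kB and AP-1.

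The series measured single-cell RNA in the intervertebral discs of the tail, pads of fibrocartilage that sit between neighbouring vertebrae, 7 days after needle injury. All mice were wildtype C57BL/6 females aged 12 weeks, and there was 1 control and 1 injured library in each of 2 rounds. Injured discs came from coccygeal levels CC5/6 to CC9/10 and had been punctured on both sides through a 30G needle. Control discs were unpunctured discs of levels CC12/13 to CC16/17 taken from those same mice, so the level in the tail cannot be told apart from injury in any comparison, and the control discs shared their animal with injured ones. Per the series text, discs of 6 mice, 30 per group, were pooled into 1 suspension, snap frozen, thawed and sorted for viable cells with the dye DAPI. A library is therefore a pool of animals, and with 2 libraries per group the spread covers rounds and pools, not single mice.

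Libraries differed in depth, and the round 1 libraries shared cell barcodes. Total UMIs, the distinct transcript molecules counted, ranged from 1114210 to 16972879 per library. The median UMIs per member cell were 1384 in control round 1, 8276 in control round 2, 11762 in injured round 1 and 6144.5 in injured round 2. Of the 29 members of control round 1, 15 carried a barcode that also held a cell in injured round 1, with 29.8 to 39.7 times as many UMIs there. All 15 of those barcodes were also members in injured round 1. These 15 cells had a median of 1014 UMIs, against 5314 in the 14 members of control round 1 whose barcodes had at most 0.0177 times their UMIs in injured round 1. Results are therefore given with and without the shared barcodes; 25 other kept cells of control round 1 also shared theirs. For round 2 the sequences of the barcodes were not compared.

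Mmp3 was found in 344 of the 367 members, Nos2 in 269, Cxcl1 in 342 and Cxcl2 in 351. All 4 genes were detected together in 222 members (60.5%), exactly 3 in 128 and exactly 2 in 17. No member had only 1 of the genes detected. How much each gene gave to a score was not measured. Levels are given as counts per 1000000 UMIs (CPM), from UMIs summed over the member cells of a library; since the genes chose the cells, they are a description. Mmp3 stood at 9921 and 5147 CPM in members of control rounds 1 and 2, and at 9511 and 3681 CPM in members of injured rounds 1 and 2. Its level in members followed the round, with round 1 above round 2 in control and injured discs alike. Cxcl1 was at 6830 and 2484 CPM in control members and at 6873 and 2436 CPM in injured members, and showed the same order of rounds. Cxcl2 was at 10926 and 9731 CPM in control members and at 13076 and 8581 CPM in injured members, so that the groups overlapped. Nos2 was at 174 and 425 CPM in control members and at 523 and 322 CPM in injured members, and the groups overlapped here as well. Without the shared barcodes, control round 1 members held 10583 CPM of Mmp3, 114 of Nos2, 6854 of Cxcl1 and 10651 of Cxcl2. The fitted injured-over-control differences within members, given without a test because these genes chose the cells, were -0.11 ± 0.66 (log2, SE) for Mmp3, 0.62 ± 0.55 for Nos2, 0.08 ± 0.67 for Cxcl1 and 0.17 ± 0.64 for Cxcl2, with n = 2 libraries per group.

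**Figure D1:**
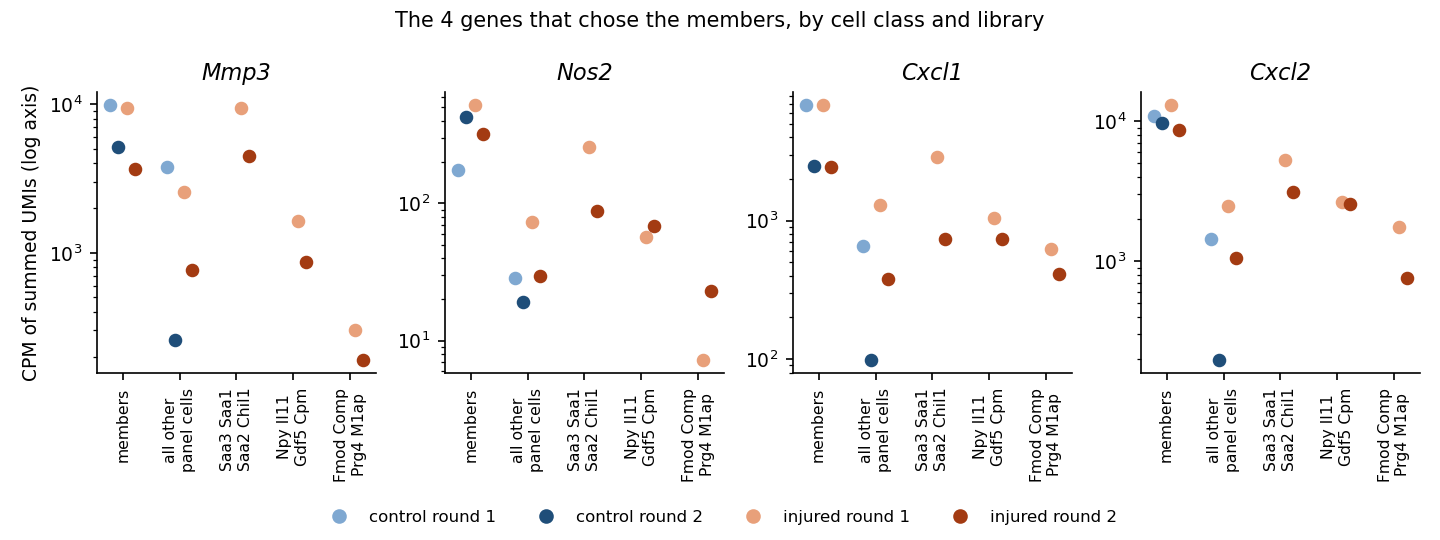
CPM of summed UMIs (log axis) of the 4 genes that chose the members, in members, in all other panel cells and, for the injured libraries, in cells of the 3 panels with the next highest scores of the Mmp3, Nos2, Cxcl1 and Cxcl2 panel; each point is 1 library. Cells of the Saa3, Saa1, Saa2 and Chil1 panel reach the Mmp3 level of members (9494 CPM in injured round 1) but lie lower for Nos2, Cxcl1 and Cxcl2.

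The stretch upstream of the start site is shown for 3 of the 4 panel genes, to look for letters of the NF-kB and AP-1 motifs named above. The promoter table had no entry for Nos2, which was therefore not searched. The 250 bases before the RefSeq start (build GRCm38.p6) are printed from 5′ to 3′ on the strand of the gene, with motif matches in capitals. The stretch upstream of Mmp3 is chr9:7445572-7445821 on the plus strand, and those of the neighbouring genes Cxcl1 and Cxcl2 are chr5:90890995-90891244 and chr5:90903649-90903898, also on the plus strand.
Mmp3: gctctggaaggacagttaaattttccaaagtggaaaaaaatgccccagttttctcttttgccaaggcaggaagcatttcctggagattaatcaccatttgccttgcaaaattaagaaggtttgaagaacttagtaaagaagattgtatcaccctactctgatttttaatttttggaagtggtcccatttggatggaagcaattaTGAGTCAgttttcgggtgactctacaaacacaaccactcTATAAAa
Cxcl1: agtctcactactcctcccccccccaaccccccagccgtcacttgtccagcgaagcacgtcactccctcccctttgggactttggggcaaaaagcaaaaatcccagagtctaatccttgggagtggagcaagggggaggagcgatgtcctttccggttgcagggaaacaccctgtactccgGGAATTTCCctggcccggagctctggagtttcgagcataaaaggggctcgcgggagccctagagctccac
Cxcl2: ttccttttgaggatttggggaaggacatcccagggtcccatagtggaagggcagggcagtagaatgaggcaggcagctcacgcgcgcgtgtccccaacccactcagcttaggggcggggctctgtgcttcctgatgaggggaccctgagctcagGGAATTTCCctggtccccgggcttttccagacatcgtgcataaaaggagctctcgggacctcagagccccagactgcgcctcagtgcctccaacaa
Cxcl1 and Cxcl2 carried the identical match GGAATTTCC to the NF-kB motif GGANTTTCC, 62 and 88 bases before the start. On both strands, 1.07% of 32851 mouse promoter windows of this length held that motif. Mmp3 carried TGAGTCA, a match to the AP-1 motif TGANTCA that 6.75% of windows held, 40 bases before the start, and TATAAA, held by 12.4% of windows. The motifs searched do not overlap in these windows. A match is a description of the letters and was not tested as a binding site. Among the 20 non-panel genes that stood highest in members, 13 had a promoter entry, of which 2 (Tnfaip2 and Tnfaip3) held the NF-kB motif and 4 (Lif, Tnfaip3, Tnfaip6 and Plet1) the AP-1 motif.

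The cells carried markers of disc cartilage, while markers of blood cells were at low levels. At least 2 of 14 cartilage or inner annulus markers were detected in 27 of 29, 8 of 9, 178 of 181 and 147 of 148 members of control rounds 1 and 2 and injured rounds 1 and 2. The proteoglycan gene Acan, the cartilage collagen gene Col2a1 and Sox9, the transcription factor of the cartilage lineage, were detected in 97.8%, 96.1% and 93.9% of members of injured round 1. Others of that list were scarce: the median member cell of every library held none of Col9a1, Col9a2, Col9a3, Matn3, Cnmd or Cilp2. The 14 markers summed to 8279, 16030, 16230 and 15336 CPM in members of control rounds 1 and 2 and injured rounds 1 and 2. Other panel cells of those libraries held 12799, 11175, 15197 and 13912 CPM. Members thus lay below them in control round 1 and above them in the other libraries. The 12 fibroblast or outer annulus markers summed to 7564, 12242, 18654 and 11237 CPM in members, against 10457, 13083.5, 23533 and 34097 CPM. In members the fibroblast sum was the higher one in injured round 1. Dcn, a small proteoglycan of fibrous tissue, was detected in 93.4% of members of injured round 1. At least 2 of 12 fibroblast or outer annulus markers were found in 163 of 181 there. Col9a1, a cartilage collagen gene, and Matn3, a matrilin gene, were at 0 in both control libraries, and Aspn and Postn, 2 outer annulus markers, were at 0 in members of both as well. All 8 leukocyte markers, Ptprc among them, were at 0 in control members. In injured members the 8 leukocyte markers summed to 35.1 and 43.2 CPM, against 5.64 and 21.3 CPM in the other panel cells, and 2 members per injured library held at least 2 of them. The macrophage or monocyte list summed to 116 and 41.2 CPM in control members, all of it Cd14, and to 161 and 122 CPM in injured members, against 47.9, 28.2, 41.6 and 56.1 CPM in the other panel cells. The sum was thus higher in members in every library, and its part in the results below was not tested. At least 2 of these 14 markers were found in 15 of 181 and 9 of 148 injured members and in 0 control members. Cd14, the endotoxin co-receptor that stromal cells can also make, was itself at 100 and 76.6 CPM in injured members. The 8 endothelial markers summed to at most 13.7 CPM, the 8 neutrophil markers to at most 23.5 CPM, the 8 mural markers to at most 28.5 CPM and the lymphocyte, skeletal muscle and erythroid lists to at most 9.66, 17.7 and 2.70 CPM in any library. The largest sums of the nucleus pulposus, pancreas and epithelium lists were in control round 2, with 165 CPM (12 UMIs), 41.2 CPM (3 UMIs) and 27.4 CPM (2 UMIs). The markers measured did not go against the label of inflammatory disc cells.

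Free RNA, measured in barcodes too small to be cells, held less of the panel genes than members did in the 3 libraries where it was measured, which leaves out control round 1. Barcodes with under 100 UMIs held 526 CPM of Mmp3, 400 of Cxcl1, 1076 of Cxcl2 and 21.5 of Nos2 in injured round 1. In the 27 endothelial cells of that library (median 3986 UMIs; members 11762), Cxcl1 was seen in 29.6%, Cxcl2 in 22.2%, Mmp3 in 14.8% and Nos2 in 3.70%, against 94.5%, 96.7%, 97.2% and 80.7% of members. In control round 1, Cxcl1 was seen in 42.9% and Cxcl2 in 28.6% of 7 endothelial cells (median 3749 UMIs; members 1384). Whether these UMIs were free RNA or the endothelial cells' own was not tested. A share of other cells near those levels may be background.

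Membership was a range and not a sharp class. The lowest members scored 0.516, 0.522 and 0.535, and the closest cells outside, with that panel highest but under the threshold, scored 0.497, 0.485 and 0.485. Only 14 members scored within 0.1 above the threshold and 7 cells within 0.1 below it, while 277 of the 367 members scored above 1. The median score was 1.32 in control round 1, 1.31 in control round 2, 1.72 in injured round 1 and 1.14 in injured round 2, so injured round 2 had the lowest and injured round 1 the highest. Some other panel also scored over 0.5 in 213 members, and for 19 members it came within 0.1 of the score that made them members. Another 175 cells scored above 0.5 but had a different panel higher.

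**Figure D2:**
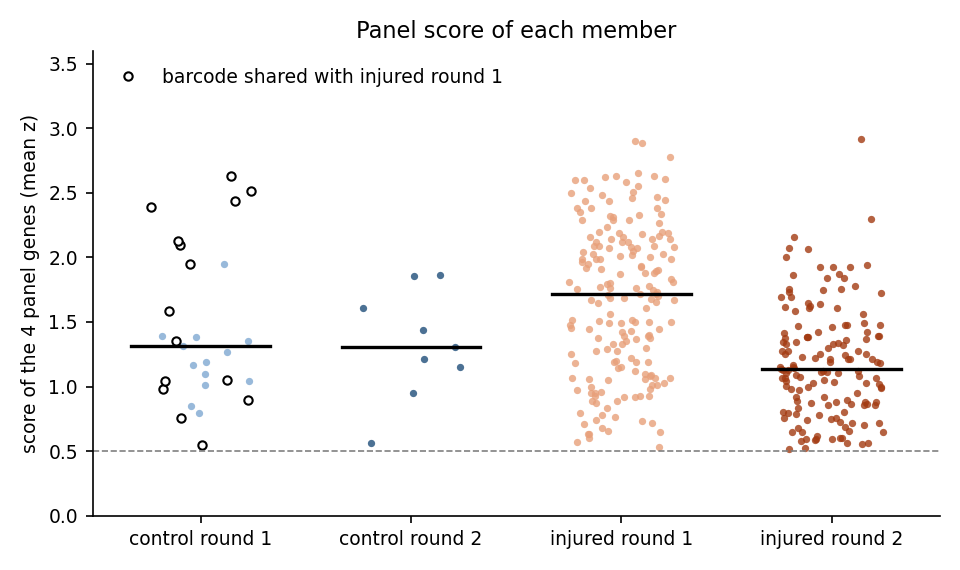
Score of the Mmp3, Nos2, Cxcl1 and Cxcl2 panel (mean z-score) in each of the 367 members by library; bars are medians, the dashed line is the threshold of 0.5, and open circles are the 15 members of control round 1 whose barcodes are shared with injured round 1. Medians run from 1.14 in injured round 2 to 1.72 in injured round 1.

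The next highest panel of a member was most often Npy, Il11, Gdf5 and Cpm (142 members), then the acute-phase panel Saa3, Saa1, Saa2 and Chil1 (103) and the lubricin panel Fmod, Comp, Prg4 and M1ap (63). Seen from the other side, the 184 acute-phase cells had the highest median score of the Mmp3, Nos2, Cxcl1 and Cxcl2 panel, 0.18, followed by -0.04 in the 292 Npy cells and -0.40 in the 299 Fmod cells. The median of the acute-phase cells differed by round: it was 0.61 and 0.82 in control and injured round 1, above the threshold of 0.5, and 0.05 and 0.07 in control and injured round 2. In injured rounds 1 and 2, Mmp3 was at 9494 and 4500 CPM in acute-phase cells, level with members in round 1 and above them in round 2 (9511 and 3681 CPM), while Nos2 was at 256 and 88.7 CPM, Cxcl1 at 2862 and 732 CPM and Cxcl2 at 5277 and 3101 CPM there, below members in the same library. The acute-phase gene Saa1, whose reads its near-identical neighbour Saa2 may share, went the other way, with 431 and 674 CPM in injured members against 7172 and 8601 CPM in acute-phase cells. Lcn2, which encodes an iron-scavenging antimicrobial protein and belonged to no panel, was at 1807 and 1788 CPM in injured members and at 7971 and 9042 CPM in acute-phase cells. Il11, an interleukin-6 family cytokine of the Npy panel, was at 698 and 452 CPM in injured members and 1197 and 813 CPM in Npy cells. These differences are descriptions, since the panels sorted the cells.

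Members made up a larger share of injured than of control discs within each round. On average the rounds differed more than the groups, with round 1 above round 2 in control and injured discs alike. The share of kept cells was 14.6% in control round 1 (29 of 199; exact 95% interval 9.98 to 20.3%) and 3.95% in control round 2 (9 of 228; 1.82 to 7.36%). It was 30.8% in injured round 1 (181 of 588; 27.1 to 34.7%) and 10.6% in injured round 2 (148 of 1402; 8.996 to 12.3%). The groups overlapped, because control round 1 lay above injured round 2. The mean was 9.26% ± 7.51 in control and 20.7% ± 14.3 in injured discs (SD, n = 2 libraries each), a difference of 11.4 percentage points with a pooled SD of 11.4. Within rounds the injured share was higher by 16.2 points in round 1 and by 6.61 points in round 2. No test is given, since the measured genes chose the cells and an exact permutation test of 2 libraries against 2 could not reach 0.05. Without the shared barcodes the share of control round 1 was 8.81% (14 of 159; 4.90 to 14.3%), below injured round 2, and the difference of the means was 14.3 points. With every cell thinned to 1000 UMIs and 54 shallower cells left out (24, 14, 6 and 10 per library), the shares were 12.0%, 4.67%, 28.01% and 9.77%. Single libraries moved the difference of the means: it was 1.30 points without injured round 1, 21.5 without injured round 2, 16.7 without control round 1 and 6.10 without control round 2. All libraries had been sorted for viable cells, which can set shares; its part was not tested.

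**Figure D3:**
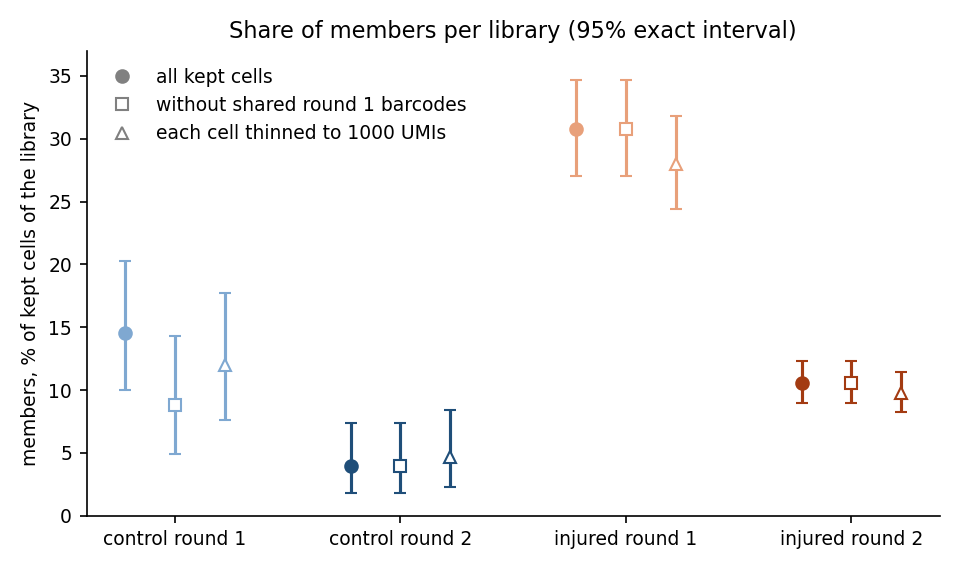
Members as a percentage of the kept cells of each library, with exact 95% binomial intervals that cover counting error only; filled circles use all kept cells, squares leave out the shared round 1 barcodes, and triangles thin each cell to 1000 UMIs. Injured exceeds control within each round, and control round 1 (14.6%) lies above injured round 2 (10.6%) unless the shared barcodes are left out (8.81%).

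Beside the panel genes, members held high levels of other secreted signals. Since the cells were chosen against the rest, folds between members and other panel cells are descriptions with no test; they are ratios of CPM + 1 within a library. Of 5190 genes with at least 20 CPM in members or in other panel cells of each injured library, 57 (1.1%) were at least 2-fold higher in members in both injured libraries and 82 (1.58%) at least 2-fold lower. These percentages are the background for the gene lists. The 20 CPM could be reached in members alone: this was so in at least 1 library for 23 of the 57 genes, and in other panel cells alone for 60 of the 82, and such genes had to differ. The counts of the lists are therefore a description only. Among chemokines, 4 of the 6 measured of 23 listed were 2-fold higher, 2 of them panel genes and the others Ccl2 and Ccl7, which attract monocytes. Ccl2 was at 4985 and 1043 CPM in control members and at 1924 and 1567 CPM in injured members, against 350, 39.0, 360 and 248 CPM in the other panel cells of those libraries. Each library had more Ccl2 in members, 14.2-, 26.1-, 5.34- and 6.30-fold, and a UMI of it was seen in 65.7% and 42.6% of injured members against 23.2% and 20.8% of the other panel cells. Ccl7 was at 2125, 535, 1163 and 327 CPM in members and 278, 74.6, 319 and 115 CPM in other panel cells, again higher in every library. Acute-phase cells of the injured libraries held 1075 and 155 CPM of it, near the level of members in round 1. Without the shared barcodes, members of control round 1 held 5827 CPM of Ccl2 and 2395 of Ccl7.

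Of the interleukin-6 family list, 2 of 13 measured genes were 2-fold higher in both injured libraries. Lif, a cytokine that signals through gp130, was at 203, 96.1, 158 and 149 CPM in members of control rounds 1 and 2 and injured rounds 1 and 2, against 70.3, 19.9, 36.6 and 31.0 CPM in other panel cells. It was 4.21- and 4.70-fold higher in the injured libraries, where about the same share of members held a UMI (36.5% and 35.8%; other panel cells 11.6% and 9.78%). Cebpd, a transcription factor induced by interleukin-6 and interleukin-1, was the other, at 1972 and 1061 CPM against 950 and 343 CPM, and acute-phase cells held as much (1992 and 1042 CPM). Of the genes for interleukin-1 and tumour necrosis factor, their receptors and Toll-like receptors, 8 of 26 were measured and 1 was higher: Tlr2, a receptor for bacterial lipoproteins, at 406 and 366 CPM in injured members against 117 and 86.5 CPM. The ligand genes themselves were at low levels in members. Il1b was at 9.66, 0, 31.2 and 0.98 CPM, with 1 UMI in all control members and 80 of the 81 UMIs of injured round 1 in 1 cell, and Tnf at 9.66, 0, 16.6 and 40.3 CPM, also with 1 control UMI. In other panel cells Tnf was lower still, at 1.76 and 2.74 CPM in the injured libraries, 6.36- and 11.0-fold below members, and a UMI of it was seen in 7.18% and 11.5% of injured members against 1.16% and 1.70% of other panel cells. Il1r1, the interleukin-1 receptor gene, was at 74.8 and 30.4 CPM in injured members and at 77.5 and 47.3 CPM in other panel cells.

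Genes of NF-kB inhibitors were among those higher in members. Of 16 measured genes of this list, 3 were 2-fold higher in both injured libraries and none 2-fold lower: Tnfaip3 and its partner Tnip1, which shut down NF-kB signalling, and Zc3h12a, a ribonuclease that degrades cytokine mRNAs. In injured round 2, Tnip1 and Zc3h12a reached 20 CPM only in members. Tnfaip3 was at 280 and 329 CPM in control members and 138 and 306 CPM in injured members, against 130, 113, 66.2 and 81.7 CPM in other panel cells. Acute-phase cells held 180 and 169 CPM of it in the injured libraries, above members in round 1 and below them in round 2. Zc3h12a was at 126, 82.3, 125 and 82.5 CPM in members and 40.4, 25.7, 40.9 and 14.7 CPM in other panel cells. Nfkbiz, which encodes an inducible IkB-like co-activator of Lcn2 and Il6, was at 377 and 454 CPM in injured members, 1.71- and 2.57-fold above other panel cells. The p50 precursor gene Nfkb1 was at 397 and 345 CPM against 236 and 134 CPM. The list's median log2 ratio was 0.65 in injured round 1 and 1.03 in injured round 2, where the medians of all measured genes were -0.07 and 0.00. Tnfaip2 and Tnfaip6, further genes named for induction by tumour necrosis factor, were 2.98- and 2.39-fold and 2.07- and 2.03-fold higher in the injured libraries.

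Proteases and matrix remodelling genes included a small set that was higher. Of 7 measured metalloproteinase and inhibitor genes, 3 were 2-fold higher in both injured libraries: the panel gene Mmp3, the collagenase gene Mmp13 and the elastase gene Mmp12, of which the first chose the cells and the others reached 20 CPM only in members in injured round 2. Mmp13 was at 77.3, 41.2, 91.3 and 59.9 CPM in members, from 8 and 3 UMIs in the control libraries, and at 77.8, 3.32, 40.9 and 18.9 CPM in other panel cells. In control round 1 it was thus not higher in members, and acute-phase cells of the injured libraries held 94.7 and 49.0 CPM, about the level of members. Mmp12 was at 232, 0, 244 and 38.3 CPM in members and was higher still in acute-phase cells (351 and 109 CPM in the injured libraries). The inhibitor gene Timp1 was at 1435 and 1764 CPM in injured members against 1066 and 1572 CPM, under 2-fold. Adamts1, an aggrecan- and versican-cleaving protease, was at 299, 261, 261 and 226 CPM in members against 92.7, 53.9, 85.2 and 90.8 CPM, and its members' values varied little over the 4 libraries. Plet1, a surface protein gene, had the largest injured folds among the 20 named genes, 7.68 and 10.8, at 307 and 258 CPM against 39.1 and 23.0 CPM.

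Arginine and hyaluronan genes followed. Slc7a2, the cationic amino acid transporter that brings arginine into cells, was at 386, 439, 825 and 252 CPM in members against 123, 43.1, 202 and 88.4 CPM. With Nos2 it made up the 2 of 7 measured nitric oxide and arginine genes that were higher. The hyaluronan synthase gene Has2 was at 222, 151, 270 and 252 CPM in members against 73.3, 46.4, 111 and 62.1 CPM. Tnfaip6, whose product binds and crosslinks hyaluronan, was at 1478, 467, 840 and 593 CPM against 299, 123, 406 and 292 CPM, and these were the 2 of 11 measured hyaluronan and adhesion genes that were higher. Ptges, which encodes the last enzyme of prostaglandin E2 synthesis, was the 1 of 4 measured prostaglandin genes that was higher, at 166 and 84.5 CPM in injured members against 34.5 and 35.8 CPM. Ptgs2, the inducible cyclooxygenase, was lower in members of injured round 1 (111 against 181 CPM) and higher in those of injured round 2 (106 against 39.9 CPM).

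Among 23 measured antioxidant genes, 2 were higher: Sod2, the mitochondrial superoxide dismutase, at 1266, 782, 729 and 490 CPM against 613, 144, 301 and 180 CPM (acute-phase cells of the injured libraries 734 and 495 CPM), and Slc7a11, the cystine importer, at 386, 13.7, 165 and 75.6 CPM against 12.0, 7.46, 52.5 and 7.40 CPM. Nfe2l2, the antioxidant transcription factor, was 1.95- and 2.45-fold higher in the injured libraries but lower in control round 2 (41.2 against 68.8 CPM, from 3 UMIs). Of 20 growth factor genes, only Ereg, an epidermal growth factor receptor ligand, was 2-fold higher in both injured libraries. It was at 793 and 733 CPM against 330 and 144 CPM, and 4 genes were lower (Ccn1, Igf1, Igfbp4 and Dkk3). In at least 1 injured library, these 4 reached 20 CPM only in other panel cells. Inhba, the activin A subunit, was at 6819 and 2798 CPM against 3664 and 660 CPM, and Bmp2 at 3688 and 1437 CPM against 2034 and 382 CPM. Their folds of 1.86 and 4.23 and of 1.81 and 3.76 thus differed between rounds. Lrrc8d, a volume-regulated anion channel subunit, was at 104 and 142 CPM against 54.9 and 56.2 CPM, Noct, an NADP(H) phosphatase, at 303 and 223 CPM against 114 and 55.8 CPM, and Idi1, of isoprenoid synthesis, at 373 and 383 CPM against 180 and 178 CPM. The log2 ratio of Idi1 in control round 1 went from 0.81 to 0.03 without the shared barcodes; among the 20 named genes the next lowest without them was 0.86, for Tlr2. Acute-phase cells are among the cells against which these 20 genes were chosen. Set against them alone, as a description, 18 were higher in members of both injured libraries. Tnfaip3 was higher in injured round 2 only, and Sod2 in neither. Some of the 18 were close in injured round 1, with Ereg at 793 CPM in members and 748 in acute-phase cells. Lrrc8d was at 104 and 92.7 CPM there, and Nfkbiz at 377 and 324 CPM. The same count was not made over all measured genes.

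**Figure D4:**
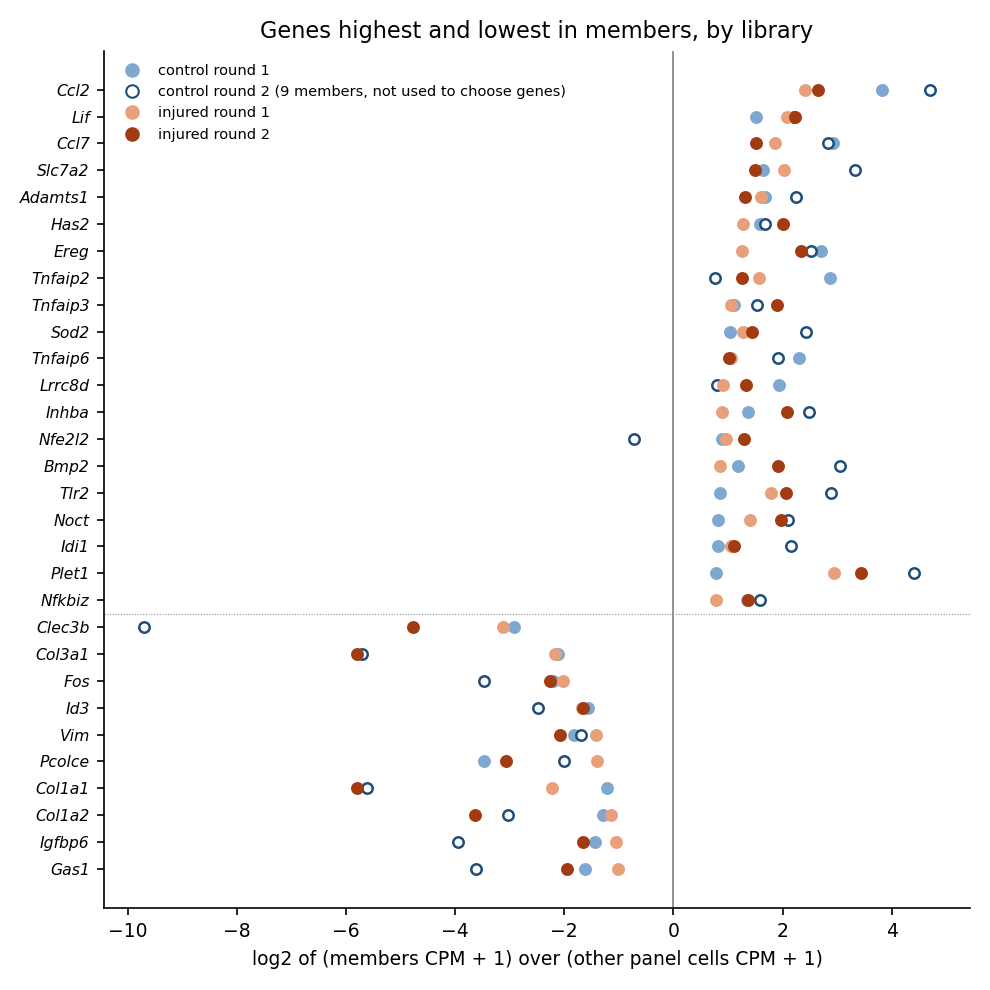
log2 ratio of members over other panel cells (CPM + 1 of summed UMIs) for the 20 non-panel genes that stood highest and the 10 that stood lowest in members over 3 libraries; each point is 1 library, and control round 2, with 9 members, was not used to choose the genes. In control round 2 the ratio of Nfe2l2 lies below 0 and those of the other 19 high genes lie above it.

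Fibrous matrix genes stood lower in members. Of 24 measured fibrous and scar matrix genes, 9 were at least 2-fold lower in both injured libraries and 0 higher. Col1a1, the main fibrous collagen, was at 628, 41.2, 1507 and 194 CPM in members against 1461, 2055, 7067 and 10881 CPM in other panel cells. Col3a1, the collagen of young scar, was at 67.6, 13.7, 243 and 81.5 CPM against 296, 768, 1102 and 4613 CPM. The other panel cells include a panel chosen by Postn and Aspn; its part in this contrast was not tested. Among the other panel cells, Fmod cells held 16317 and 13019 CPM of Col1a1 in injured rounds 1 and 2, while Npy cells held 143 and 102 CPM and acute-phase cells 75.0 and 469 CPM. Low Col1a1 was thus shared with those 2 panels, and in injured round 1 members held more of it than either. Of 21 measured cartilage matrix genes, 4 were lower (Comp, Cnmd, Epyc and Fmod, of which Epyc alone is not a panel gene) and 0 higher. Acan was at 2394 and 3083 CPM in injured members against 2197 and 1357 CPM, and Col2a1 at 7563 and 7130 CPM against 4771 and 5519 CPM, under 2-fold in at least 1 library. Clec3b, the tetranectin gene, Pcolce, a collagen processing enhancer, and Col1a2 were also among the 10 lowest, as were the growth arrest gene Gas1, the insulin-like growth factor binding protein gene Igfbp6 and Id3, a BMP target.

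Immediate early genes mostly encode transcription factors that are switched on within minutes of a stimulus, and heat shock genes encode chaperones. Of 23 measured immediate early and heat shock genes, 0 were 2-fold higher in both injured libraries and 2 lower, Fos and Fosb. Fos was at 96.6, 151, 31.2 and 145 CPM in members against 447, 1681, 129 and 701 CPM in other panel cells, lower in every library. Vim, the intermediate filament gene of mesenchymal cells, was at 377, 604, 457 and 800 CPM against 1328, 1955, 1225 and 3377 CPM. No measured gene of the glycolysis and hypoxia (16), angiogenic and neurotrophic (6), senescence and apoptosis (8), proliferation (6) or protein folding (17) lists differed 2-fold in both injured libraries. Aggrecanases and serine proteases had 1 of 12 higher (Adamts1) and 1 lower (Adamts2), the interferon list 1 of 5 higher (Gbp2) and 1 lower (Ifitm3), and the acute-phase list 0 of 7 higher and 2 lower, the panel genes Saa2 and Saa3.

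Within members, injured and control discs could be told apart for few genes. The UMI sums behind the comparison were 103516 and 72863 in control members and 2595121 and 1018243 in injured members. With edgeR's quasi-likelihood test, 0 of 5881 genes (0%) were called at an adjusted p under 0.05, with n = 2 libraries per group; 201 genes had an unadjusted p under 0.05 (122 higher and 79 lower in injured members), and DESeq2 also called 0. Control and injured discs of a round came from the same animals, and with the round as a block the edgeR test called 8 genes (0.136%). The blocked difference was positive for Csf2, Gm41724, Gm13889 and Serpina3n and negative for Apoe, Il6, 1520401A03Rik and Gem. For Il6 and 1520401A03Rik the rounds ran in opposite directions, lower in injured members of round 1 and higher in those of round 2. The blocked p-values thus do not measure agreement between the rounds. With 2 libraries per group they rest largely on the spread shared across genes. Without the shared barcodes the blocked test called 6 genes, 5 of them among these 8, while Gm13889, 1520401A03Rik and Gem were lost (edgeR adjusted p = 0.0709, 0.108 and 0.0574) and Sprr1a was added. The test without a block again called 0. Single libraries moved the count without a block: it was 33 without control round 2, 4 without injured round 2 and 1 without either control round 1 or injured round 1.

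Csf2 (chr11:54247271-54249667, minus strand of mm10), the gene of the growth factor GM-CSF that acts on granulocytes and macrophages, was at 0 UMIs in both control libraries and at 69.4 and 94.3 CPM in injured members. The injured libraries thus both lay above the controls, as they did for 871 of the 5881 tested genes (14.8%). Both lay below for 970 genes (16.5%). With 0 control UMIs, Csf2 could pass the count filter only through the injured libraries. It then had to lie above the controls. Against a limit of 3 counts over the control members, its injured level was at least 4.49-fold higher, or at least 4.09-fold without the shared barcodes (edgeR adjusted p = 0.783 without and 0.00333 with the block). The exact 95% counting interval of that ratio, which also counts the error of the injured side, begins lower, at 3.63 (3.30 without the shared barcodes). A UMI of Csf2 was seen in 14 of 181 members of injured round 1 (7.73%; exact 95% interval 4.29 to 12.6%) and in 20 of 148 of injured round 2 (13.5%; 8.45 to 20.1%). It was seen in 0 of 29 members of control round 1, which allows a share of up to 10.3% (21.4% in the 14 without shared barcodes), and in 0 of 9 of control round 2, which allows up to 33.3%. The upper ends of the exact 95% intervals, as given for the injured shares, are slightly higher, 11.9% and 33.6%. Each limit lies above the share of injured round 1, and they concern cells with a UMI at the depth of each library, which in control round 1 was a median of 1384 UMIs. In injured round 1, 1 cell held 47 of the 180 UMIs. In other panel cells Csf2 was at 0, 11.6, 5.99 and 11.8 CPM, and the interaction of class and injury gave an edgeR adjusted p of 0.774.

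Apoe (chr7:19696109-19699188, minus strand), which encodes a lipid carrier and had the smallest p, was at 551 and 110 CPM in control members and at 44.7 and 17.7 CPM in injured members. The groups did not overlap. The log2 difference was -3.31 ± 0.66 (SE; edgeR adjusted p = 0.691), and with the block -3.19 ± 0.47 (edgeR adjusted p = 6.94e-08). Without the block it was -1.53 without control round 1, -3.96 without control round 2, -4.13 without injured round 1 and -2.84 without injured round 2. The control level rested on few cells, since 1 cell held 27 of the 57 UMIs of control round 1 and 1 cell held all 8 UMIs of control round 2. The other panel cells had the same direction, from 650 and 940 CPM in control to 108 and 59.6 CPM in injured libraries, and the class by injury term was 0.01 ± 0.63. Serpina3n, a secreted serine protease inhibitor, was at 86.9 and 68.6 CPM in control members and 351 and 241 CPM in injured members, with 2.01 ± 0.55 on the log2 scale (edgeR adjusted p = 0.999) and 2.03 ± 0.48 with the block (edgeR adjusted p = 0.0151). Control round 1 held 22.8 CPM, from 2 UMIs, without the shared barcodes, and the log2 difference was 2.84, or 2.85 with the block (edgeR adjusted p = 0.0176). It was at 15.0 and 26.5 CPM in control and 212 and 142 CPM in injured other panel cells. Gem, a small GTP-binding protein gene, was at 328 and 151 CPM in control members and 26.6 and 97.2 CPM in injured members, and in other panel cells at 266 and 419 against 56.7 and 81.9 CPM. Its log2 difference was -1.87, and ranged from -1.07 without control round 1 to -3.13 without injured round 2. Injured members thus lay on the same side of the controls as the other panel cells did for Apoe, Serpina3n and Gem. The mix of panels among the other panel cells differed between the groups, and its part was not tested.

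The predicted genes Gm41724 and Gm13889 were higher in injured members (edgeR adjusted p = 0.931 and 0.999 without the block). With the block the edgeR adjusted p was 0.0014 and 0.00762. Gm41724 was at 48.3 and 13.7 CPM in control members and at 262 and 181 CPM in injured members, with 62.8 and 14.1 CPM in control and 258 and 164 CPM in injured other panel cells. Without the shared barcodes its 1 remaining UMI in control round 1 gave 11.4 CPM, and its log2 difference went from 2.83 to 4.25; it was 4.24 without control round 1. Gm13889 was at 0 and 27.4 CPM in control members, from 2 UMIs, and at 66.7 and 192 CPM in injured members, 9.01-fold over the control sum (95% counting interval 2.48 to 74.6). Its log2 difference was 3.59, and 2.47 without control round 1; without control round 2 it is fitted against 0 UMIs. In other panel cells Gm13889 was at 12.0 and 15.7 CPM in control and at 71.5 and 57.3 CPM in injured libraries. With members thinned to 1000 UMIs the log2 differences were smaller, 1.76 for Gm41724, 1.10 ± 1.10 (SE) for Gm13889 and 1.15 for Serpina3n. Il6, the interleukin-6 gene, was at 319 and 0 CPM in control members against 30.4 and 17.7 CPM in injured members, and 1520401A03Rik at 580 and 0 CPM against 37.4 and 34.4 CPM. For Il6 and 1520401A03Rik, control round 1 lay above and control round 2 below the injured libraries, so the groups overlapped. Other panel cells held 233 and 319 CPM of 1520401A03Rik in control and 38.0 and 23.2 CPM in injured libraries. For Il6 they held 28.4 and 14.9 CPM in control and 13.0 and 11.1 CPM in injured libraries. Of the 33 Il6 UMIs of control round 1, 25 came from 1 cell, and without that library the fitted difference turned positive for Il6, 1520401A03Rik and Plau.

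Spink6, Ctps, Ptpn14, Kdm5b and Plau were named for a small p in their direction and passed neither the test with the block nor that without it. Spink6, a serine protease inhibitor gene, was at 9.66 and 0 CPM in control members, from 1 UMI. In injured members it was at 70.5 and 67.8 CPM, 12.3-fold over the control sum (95% counting interval 2.19 to 488). Its log2 difference was 3.69 ± 1.01 (SE), and 2.97 without control round 2. Without control round 1 it is fitted against 0 UMIs. Like Csf2, it passed the count filter only through the injured libraries. Other panel cells held 5.98 and 4.97 CPM in control and 29.2 and 13.7 CPM in injured libraries. Ctps, of cytidine triphosphate synthesis, was at 116 and 96.1 CPM in control and 31.6 and 14.7 CPM in injured members (log2 -2.06 ± 0.58, edgeR adjusted p = 0.999). Ptpn14, a protein tyrosine phosphatase gene, was at 116 and 82.3 CPM against 33.9 and 15.7 CPM (-1.87 ± 0.59), and Kdm5b, a histone demethylase gene, at 145 and 110 CPM against 40.5 and 38.3 CPM (-1.60 ± 0.51). All 15 Kdm5b UMIs of control round 1 lay in 1 cell. Without injured round 1 the log2 difference was -2.75 for Ctps and -2.56 for Ptpn14. Plau, the urokinase gene, was at 609 and 68.6 CPM against 95.2 and 66.8 CPM, and overlapped.

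**Figure D5:**
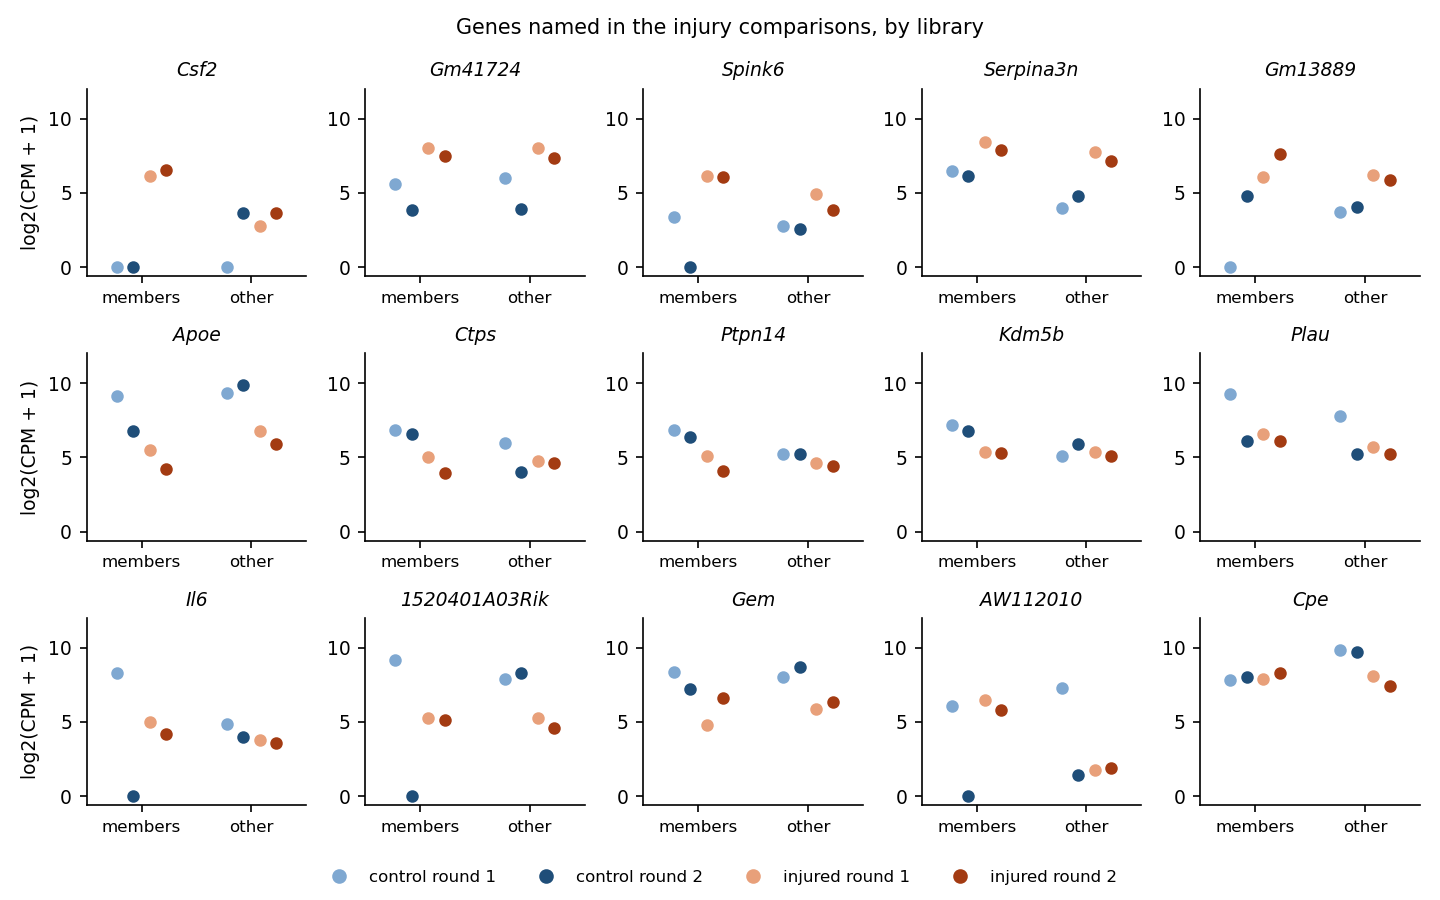
log2(CPM + 1) of summed UMIs in members and in the other panel cells for the genes named in the comparison of injured with control members and in the class by injury interaction (Cxcl5 is not drawn); each point is 1 library. Csf2 is at 0 in both control libraries of members, Apoe is lower in both injured libraries of both classes, and Cpe is lower in injured than control other panel cells but not in members.

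Gene lists of the members held few calls, and with 2 libraries per group this does not show that they did not move. Of the 21 lists, 0 genes were called without the block, and Il6 was the 1 list gene called with it. The median injured-over-control log2 difference was 0.06 over all 5881 genes. It was -0.65 over 6 tested chemokines, -0.30 over 17 NF-kB genes, 0.42 over 16 cartilage matrix genes and 0.63 over 21 fibrous matrix genes, of which 18 were positive, where 54.2% of all tested genes were. At an unadjusted p under 0.05, the list genes with a positive difference were Ccl5, Cxcl14, Hspa1a, Col3a1, Col1a2 and Egln3, and those with a negative one Il1r1, Il6, Lifr and Plau. In other panel cells the fibrous list had a median of 1.53 over 26 genes and the cartilage list one of -0.46 over 22 genes.

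For 3 of 9240 genes (0.0325%), the injury difference in members departed from that in the other panel cells of the same libraries (edgeR class by injury term with library as a term, n = 4 libraries; 475 genes had an unadjusted p under 0.05). Cpe (chr8:64592542-64693054, minus strand), the prohormone-processing carboxypeptidase E, was at 222 and 261 CPM in control members and 241 and 319 CPM in injured members, against 926 and 826 CPM in control and 274 and 168 CPM in injured other panel cells. The groups of other panel cells did not overlap and those of members did, and the term was 2.41 ± 0.46 (edgeR adjusted p = 0.0336). This gene was spread over cells, with UMIs in 121 of 181 and 102 of 148 injured members. The other panel cells were not the same mix in both groups. Cells of the Grem1, Cnmd, Sfrp5 and Frzb panel were 53 of 120 and 98 of 177 in control libraries. They were 22 of 259 and 56 of 941 in injured libraries. The part of this mix in the interaction was not tested. AW112010, an interferon-inducible transcript of immune cells, was at 67.6 and 0 CPM in control members and 89.0 and 54.0 CPM in injured members, against 153 and 1.66 CPM in control and 2.47 and 2.74 CPM in injured other panel cells (term 5.99 ± 0.64, edgeR adjusted p = 1.25e-06). It came from few cells: 1 member of control round 1, 13 members of injured round 1 and 4 of injured round 2, and 6 other panel cells of control round 1, of which 1 held 40 of 102 UMIs. Cxcl5, another neutrophil chemokine, was at 164 and 0 CPM in control members, all 17 UMIs in 1 cell, and at 2.31 and 0 CPM in injured members; in other panel cells it was at 0 in both control libraries and at 0.70 and 18.2 CPM in injured libraries (edgeR adjusted p = 0.0336). Without the shared barcodes these 3 genes were called too. The count was 38 without control round 1 (Cpe among them, AW112010 and Cxcl5 not), 10 without control round 2 and 5 without injured round 1 (all 3 among them each time), and 2 without injured round 2 (AW112010 and Fam180a).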

How the data were processed

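Cells came from 4 libraries, and a library's group and round came from its title. The deposited values are whole-number UMI counts of each gene in each barcode; Cell Ranger produced them from reads aligned to mm10, per the labels, and the file headers give version 6.0.0 for control round 1 and version 4 for the others. Replicates were not pooled and nothing was normalized in the files. Control round 1 lists 444 barcodes, the others 1194644 or more. Barcodes with at least 500 genes and under 10% mitochondrial UMIs were kept. UMIs per 10000 were log-transformed (natural log of 1 + value) and z-scored per gene over all kept cells.

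The cells, the 21 pathway and 14 marker lists and the rules were chosen with earlier results of these data known. UMIs were summed per library over members and over other panel cells (Python 3.11.15, scipy 1.17.1). Injury was tested with edgeR 4.0.16 (R 4.3.3; quasi-likelihood, filterByExpr, TMM, Benjamini-Hochberg over all tested genes, two-sided, adjusted p under 0.05); the 28 panel genes stayed in the fit without calls. A minimum of 10 members per library had been set for both edgeR tests. Control round 2 holds 9, and the tests were run with the minimum lowered to 5 after that was seen. Genes were named by rule: up to 10 called per direction with 10 or more UMIs in the higher group and the same sign in both rounds, otherwise the 5 with the smallest p; 20 highest and 10 lowest by the smallest log2 ratio over libraries with 10 or more members, at 100 CPM or more; and up to 5 interaction calls per direction. Genes called with the block were added, and Sprr1a, Fam180a, Tnf, Il1b and Lcn2 were singled out after their values were seen or as list genes. Rounds pair the samples because, per the labels, control and injured discs come from the same animals; deviations of the rounds correlated with r = 0.29 over 5902 genes (0.27 without shared barcodes).

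Alternatives were DESeq2 1.42.0, no filter on low counts, a round block, other score, gene and mitochondrial limits (0.25 and 1; 250 genes; none), thinning to 1000 UMIs, leaving out shared barcodes (at least 0.3 times as many UMIs in injured round 1), leukocyte marker cells, or each library, and leaving out the cells with the highest Scrublet scores (scanpy 1.11.5); no doublets were removed otherwise. The tests were also run on simulated data, and that outcome is not given here. Promoters came from RefSeq and positions from GENCODE M21, matched by gene ID for 74 of 74 named genes. Intervals are exact (Clopper-Pearson) at 95%, and they and the limit of 3 counts cover counting error only.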

Additional observations from a re-analysis of the deposited data

Results flagged for a closer look

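The injury difference in members departed from that in the other panel cells for 3 genes, by the edgeR class by injury term. For AW112010 the term was 5.99 on the log2 scale (injured-over-control difference of members minus that of other panel cells). For Cpe it was 2.41, with member levels of 222, 261, 241 and 319 CPM. For Cxcl5 it was -11.30, a fitted value that depends on libraries at 0 UMIs and is no fold; 1 member of control round 1 held all 17 control UMIs of members. What sets these differences was not tested.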

How the results depend on the processing

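The difference in member share stayed positive under each alternative, from 7.79 percentage points at 250 genes to 15.9 with no need for the panel to be highest, and ranged from 1.30 to 21.5 when 1 library was left out. For injury within members, edgeR called 0 genes, and also 0 with DESeq2, without shared barcodes, at other score limits, with thinned members, without leukocyte marker cells and without high doublet scores. It called 8 with the round as a block for the pairing, 6 with the block and no shared barcodes, 9 with no filter on low counts, and between 1 and 33 with 1 library left out. The interaction test called 3 genes, 11 with no filter, and 2 to 38 with 1 library left out. Of 168 alternatives for 13 named genes, 138 kept the direction and the side of the threshold, 27 kept the direction and passed it, and 3 turned the direction, all without control round 1: Plau to 0.48, Il6 to 7.94 and 1520401A03Rik to 8.48. With 1 library left out, Plau ranged from -2.76 to 0.48, Il6 from -3.55 to 7.94 and 1520401A03Rik from -3.86 to 8.48; the positive ends of Il6 and 1520401A03Rik are fitted against 0 UMIs and are no folds. A lone library was assumed to vary like the other group. The cause of the differences between settings was not tested. Depth limits the control side, where 38 members held 72863 and 103516 UMIs.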
